A study of Homo sapiens with 4 samples.

Results

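The genes described here make, bind or cut hyaluronan: the receptors CD44 and HMMR, the synthases HAS1, HAS2 and HAS3, and the hyaluronidase HYAL2, 6 genes in all. Their probes were selected by gene symbol or synonym in the platform annotation, but the genes themselves were picked with differences between these arrays in view, so their levels and differences are given as descriptions and carry no p-value. The annotation held 12 probes for 5 of the 6 genes, out of 48701 probes, and the level of HAS1 was not analysed here. Detection, at a detection p under 0.01, was required in every experiment of 1 or more lines, and 7 of the 12 probes met this. They covered CD44, HMMR, HAS2, HAS3 and HYAL2, 5 of 11947 genes tested among 19304 named genes.

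Hyaluronan is a long, unsulphated sugar chain of the extracellular matrix, built at the plasma membrane from UDP-glucuronic acid and UDP-N-acetylglucosamine by the HAS synthases and extruded as it grows. CD44 is its main cell-surface receptor and ties the pericellular coat to the actin cytoskeleton through ezrin, radixin and moesin. HMMR (RHAMM) also binds hyaluronan, but inside the cell it is a microtubule-associated protein of the mitotic spindle. HYAL2 is a GPI-anchored hyaluronidase that starts the breakdown of long chains. CD44 is also widely used as a surface marker of mesenchymal and activated cells.

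All cells were HEK293, an established human embryonic kidney cell line, with a transgene stably expressed from the immediate-early promoter of human cytomegalovirus. AIRE1 and AIRE2 are clone-derived lines expressing AIRE, the autoimmune regulator, a nuclear protein of medullary thymic epithelium known for inducing transcripts of other tissues. AIRE-D312A expresses AIRE with the D312A mutation in the first PHD finger, and NC, the control, expresses yellow fluorescent protein. Each line was studied in 3 independent experiments, giving 3 Illumina bead arrays per line and 12 in all, and the replicate number (1 to 3) names the experiment. Each line stands for itself, so a difference between lines cannot be told apart from differences between clones, and the spread between arrays is the spread between experiments with 1 line. In such bulk RNA, fewer cells expressing a gene and less RNA per cell cannot be told apart.

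AIRE itself stood at a normalised log2 intensity of 8.90 ± 0.21 (AIRE1), 8.51 ± 0.40 (AIRE2) and 8.31 ± 0.11 (AIRE-D312A), and was not well above background on any NC array, at 4.44 ± 0.10 (SD, n = 3 each). Of the HEK293 markers NEFM, NEFL and VIM were detected on 12 arrays and PAX2 on 0. Their summed intensity spanned 2352 to 3879 in AIRE1, 3936 to 8139 in AIRE2, 4978 to 6307 in AIRE-D312A and 6667 to 9307 in NC. None of the 3 leukocyte markers with a probe (PTPRC, CD3D, CD14) was detected. Of the endothelial markers PECAM1 and CDH5 were detected on 0 arrays and VWF on 6, with sums of 95 to 106 in AIRE1, 83 to 90 in AIRE2, 67 to 76 in AIRE-D312A and 66 to 72 in NC. Of the fibroblast markers COL1A1 was detected on 12 arrays, DCN on 10, LUM on 5 and COL1A2 on 0, and their sums overlapped between lines (174 to 278 in AIRE1, 137 to 295 in AIRE2, 149 to 195 in AIRE-D312A and 150 to 243 in NC). The HEK293 sum was thus lower in AIRE1 and AIRE-D312A than in NC without overlap, and the endothelial sum was higher in both clones. The HEK293 sums do not show NEFM, which stood at mean log2 levels of 5.24 (AIRE1), 5.77 (AIRE2), 5.25 (AIRE-D312A) and 8.91 (NC). NEFL stood at 8.31, 8.63, 8.63 and 9.04, and VIM at 11.38, 12.45, 12.34 and 12.77, in the same order. All of NEFM, NEFL and VIM were thus lower in the mean of each AIRE line, AIRE2 included, than in NC. Of the endothelial markers only VWF was detected, at mean log2 levels of 5.71 (AIRE1), 5.28 (AIRE2), 4.66 (AIRE-D312A) and 4.42 (NC). Within the overlapping fibroblast sums, DCN stood at 6.22, 5.93, 4.97 and 5.02 in the same order. LUM stood at 5.04, 4.86, 4.55 and 4.59, and COL1A1 at 6.73, 6.74, 6.70 and 6.95. The part of these marker differences in the results below was not tested. Mean array intensity lay between 245.6 and 324.3, and 15823 to 17288 probes were detected per array. The number of arrays limits the precision.

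The 250 bases upstream of the annotated starts of CD44 and HMMR are printed because these receptors vary in different ways: CD44 between lines, HMMR between experiments. The sequences are from RefSeq on GRCh38.p14, both on the plus strand, 5′ to 3′, CD44 at chr11:35138921-35139170 and HMMR at chr5:163460382-163460631. Capitals mark GC boxes (GGGCGG, either strand) in CD44, and CCAAT boxes (CCAAT, either strand, reading ATTGG on the reverse) and CHR elements (TTTGAA) in HMMR.
CD44: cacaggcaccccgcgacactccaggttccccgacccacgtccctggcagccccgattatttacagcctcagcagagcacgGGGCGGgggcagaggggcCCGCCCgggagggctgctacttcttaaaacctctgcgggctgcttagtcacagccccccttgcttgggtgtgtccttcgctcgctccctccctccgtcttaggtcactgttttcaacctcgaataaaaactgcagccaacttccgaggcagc
HMMR: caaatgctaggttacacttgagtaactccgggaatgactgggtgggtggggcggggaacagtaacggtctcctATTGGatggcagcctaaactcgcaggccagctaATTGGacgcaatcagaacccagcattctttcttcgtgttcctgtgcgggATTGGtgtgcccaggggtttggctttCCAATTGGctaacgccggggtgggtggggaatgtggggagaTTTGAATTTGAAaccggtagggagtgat
The CD44 window held 2 GC boxes, beginning 170 and 152 bases upstream, and no match to the AP-1 letters TGANTCA, the CCAAT box, the CHR element or the TATA box letters TATAAA. The HMMR window held 5 CCAAT matches, 2 of them overlapping in 1 palindrome, and 2 adjoining CHR elements, beginning 28 and 22 bases upstream. It also held 1 GC box, beginning 202 bases upstream. Of 35116 such windows, 42.6% held a GC box, 6.57% the AP-1 letters, 32% a CCAAT box, 13.3% a CHR element and 10.7% the TATA box letters. CCAAT boxes and CHR elements are known from promoters of genes expressed late in the cell cycle. At least as many CCAAT matches as in HMMR occurred in 0.319% of the windows and at least as many CHR elements in 1.72%. Among 22 mitotic spindle genes set beside HMMR below, 19 had a window, and 11 of these held both a CCAAT box and a CHR element, against 4.69% of all windows. That list was made of genes of the kind these elements are known from, so its share is a description and not a test. The windows of HAS3 and HYAL2 held no CCAAT box and no CHR element, and that of HAS1 held 1 CHR element on the reverse strand, 30 bases upstream, and no CCAAT box. A match describes the letters and is not a binding site.

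CD44, the main hyaluronan receptor, was brightest in AIRE2. Its detected probe stood at log2 intensities of 9.24, 8.33 and 9.02 on the AIRE2 arrays of replicates 1, 2 and 3. In AIRE1 the same probe stood at 7.12, 6.71 and 6.84, in AIRE-D312A at 7.13, 6.74 and 6.76, and in NC at 6.25, 6.19 and 6.63. Every AIRE2 array lay above every array of the other lines, and the AIRE1 and AIRE-D312A arrays overlapped each other and lay just above those of NC. The means were 8.86 ± 0.47 in AIRE2, 6.89 ± 0.21 in AIRE1, 6.88 ± 0.22 in AIRE-D312A and 6.36 ± 0.24 in NC (SD, n = 3 each). AIRE2 exceeded NC by 2.50 ± 0.22 on the log2 scale (SE; 95% interval 2.03 to 2.98), a 5.67-fold difference. AIRE2 exceeded AIRE-D312A by 1.98 ± 0.22, and the AIRE1 minus AIRE2 difference was -1.97 ± 0.22. The differences of AIRE1 and AIRE-D312A over NC were 0.53 ± 0.22 and 0.52 ± 0.22, with lower bounds of the 95% interval at 0.05 and 0.04.

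Within single experiments the CD44 difference of AIRE2 over NC was 2.99, 2.14 and 2.38 log2 in replicates 1, 2 and 3. That of AIRE1 over NC was 0.86, 0.52 and 0.20, and that of AIRE-D312A over NC 0.88, 0.56 and 0.12. All of these were positive. The smallest was that of replicate 2 in AIRE2 and that of replicate 3, where NC was brightest, in AIRE1 and AIRE-D312A. With the replicate block, that is, with the experiment as a term in the fit, the standard error of the CD44 differences was 0.15 instead of 0.22. The unprocessed intensity of the probe was 652.6, 339.1 and 562.0 in AIRE2 and 119.6, 109.5 and 119.1 in NC, where the detection limit was 71.7, 71.2 and 68.6. In the authors' deposited table, which gives 1 value per line, CD44 was 484.7 in AIRE2, 93.8 in AIRE1, 89.8 in AIRE-D312A and 72.5 in NC. A second CD44 probe was detected on 0 of 12 arrays, so which CD44 transcripts made up the signal was not resolved.

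**Figure D1:**
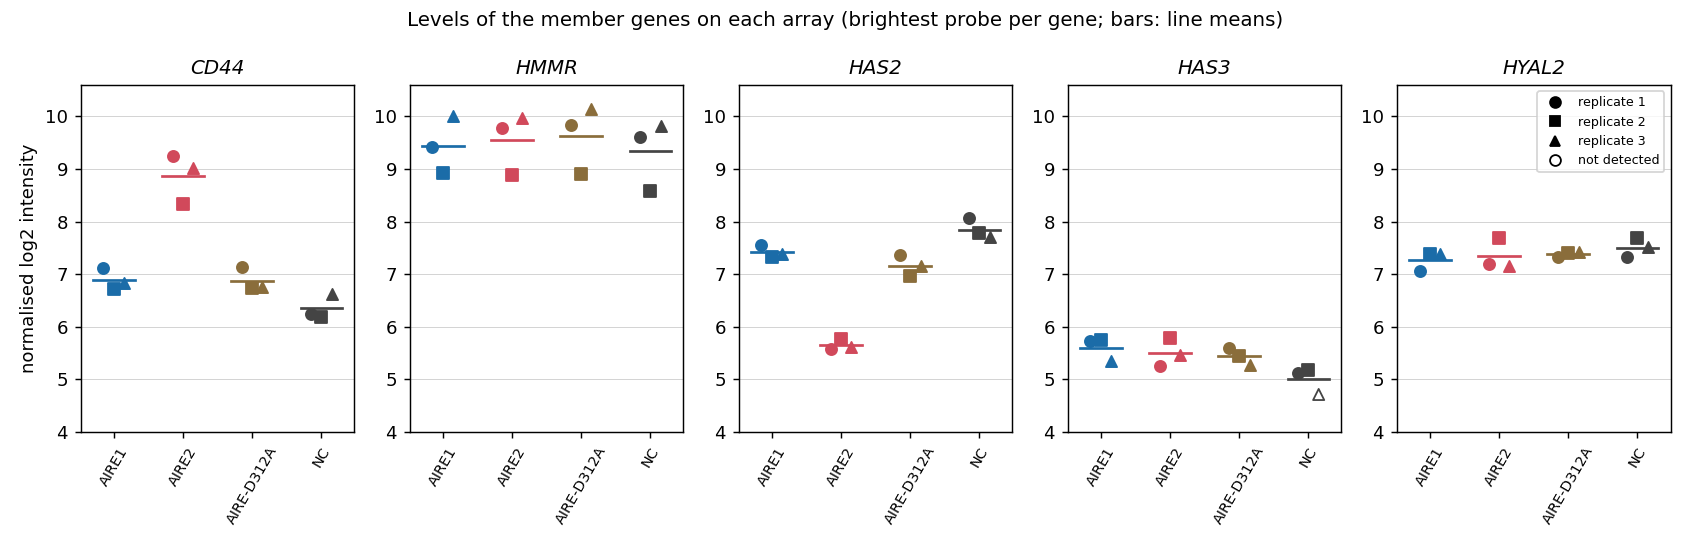
Normalised log2 intensity of the brightest probe of CD44, HMMR, HAS2, HAS3 and HYAL2 on each of the 12 arrays, by line, with symbols for the replicate number, open symbols where the probe was not detected, and bars at the line means. CD44 is highest and HAS2 lowest in AIRE2, whereas HMMR is lowest on the replicate 2 array of every line; levels of different panels come from different probes and are not comparable.

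HAS2, the synthase known for making long hyaluronan chains in many mesenchymal cells, was dimmest in AIRE2. Its brightest probe stood at log2 intensities of 5.57, 5.76 and 5.62 in AIRE2, and at 7.56, 7.32 and 7.39 in AIRE1. The AIRE-D312A arrays gave 7.36, 6.97 and 7.16, and the NC arrays 8.06, 7.78 and 7.70. AIRE2 thus lay below every other line and NC above every other line, with AIRE1 and AIRE-D312A overlapping between them. Against NC the log2 difference was -2.20 ± 0.13 in AIRE2 (SE; 95% interval -2.48 to -1.92), which is 4.6-fold lower, and -0.43 ± 0.13 in AIRE1 and -0.69 ± 0.13 in AIRE-D312A. AIRE2 was lower than AIRE-D312A, with a difference of -1.51 ± 0.13, and AIRE1 exceeded AIRE2 by 1.77 ± 0.13. The order from highest to lowest was NC, AIRE1, AIRE-D312A and AIRE2; of neighbours in this order only AIRE1 and AIRE-D312A overlapped, differing by 0.26 ± 0.13 (95% interval -0.02 to 0.54). Within the experiments that difference was 0.20, 0.36 and 0.23, and with the replicate block its interval was 0.04 to 0.49.

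HAS2 was read by 2 further detected probes, and they gave the same order of lines. On the first of these the difference from NC was -2.91 ± 0.15 in AIRE2, -0.45 ± 0.15 in AIRE1 and -0.66 ± 0.15 in AIRE-D312A. That probe was near the detection limit in AIRE2, at 4.83, 4.96 and 5.02, and was detected on 2 of the 3 arrays. The remaining probe was not well above background on any AIRE2 array, at a measured mean of 4.62, against 6.24 in NC, and was at least 2.55-fold lower in AIRE2 than in NC. It was at least 1.57-fold lower in AIRE2 than in AIRE-D312A and at least 1.87-fold higher in AIRE1 than in AIRE2. Here the dim line was taken at the higher of its own value and the detection limit on each array. Its differences in AIRE1 and AIRE-D312A were -0.45 ± 0.14 and -0.70 ± 0.14. For AIRE1 over AIRE-D312A the intervals of these 2 probes spanned 0 also with the block (-0.05 to 0.45 and -0.01 to 0.52). In every replicate all 3 probes were lower in each AIRE line than in NC. A HAS2 probe that was detected on 0 arrays adds no level. The probes read 1 RNA sample per array and are not replicates of each other.

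**Figure D2:**
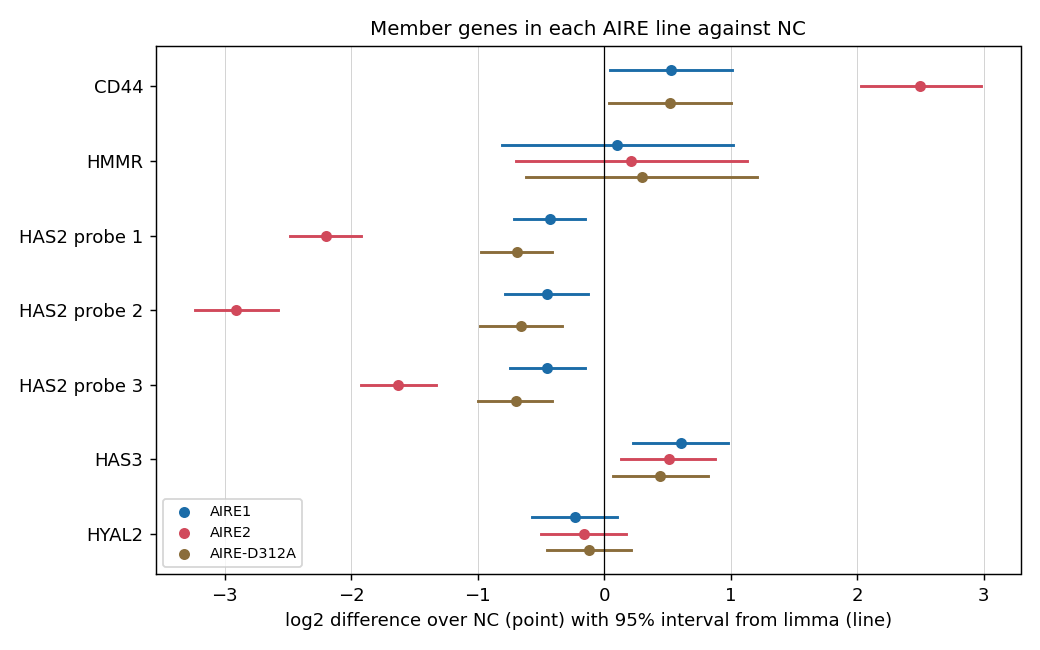
Log2 difference of AIRE1, AIRE2 and AIRE-D312A over NC for the 7 detected probes of the hyaluronan genes, with 95% intervals of the limma fit over 12 arrays. The AIRE2 intervals of CD44 (2.03 to 2.98) and of the HAS2 probes stand apart from those of the other lines, while the HAS3 points of the 3 lines lie together between 0.44 and 0.61 and the HYAL2 and HMMR intervals span 0.

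HAS3, a synthase known for making shorter chains, was dim in all lines. Its log2 intensity was 5.73, 5.74 and 5.34 in AIRE1, and 5.26, 5.78 and 5.47 in AIRE2. It was 5.60, 5.44 and 5.28 in AIRE-D312A. In NC it was 5.11, 5.17 and 4.71, and the last of these arrays did not detect it. The 9 arrays of the AIRE lines all lay above the NC arrays, the nearest gap being that between 5.26 in AIRE2 and 5.17 in NC. The differences over NC were 0.61 ± 0.17 (AIRE1), 0.51 ± 0.17 (AIRE2) and 0.44 ± 0.17 (AIRE-D312A; SE), and the 3 lines overlapped each other. Without background correction the differences were 0.30, 0.25 and 0.21 in the same order. A second HAS3 probe was detected on 0 arrays.

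HYAL2, the membrane-anchored hyaluronidase, stood at 7.06, 7.38 and 7.38 in AIRE1, 7.20, 7.68 and 7.15 in AIRE2, 7.33, 7.41 and 7.43 in AIRE-D312A, and 7.33, 7.68 and 7.51 in NC. All 4 lines overlapped. The differences from NC were -0.23 ± 0.15 (AIRE1), -0.16 ± 0.15 (AIRE2) and -0.12 ± 0.15 (AIRE-D312A; SE), with 95% intervals of -0.57 to 0.10, -0.50 to 0.17 and -0.45 to 0.21. With the replicate block they were -0.46 to -0.01, -0.39 to 0.06 and -0.35 to 0.11. The other 2 HYAL2 probes were detected on 0 arrays.

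HMMR, the spindle-associated hyaluronan receptor, varied between experiments, and its levels in the 4 lines overlapped. Its log2 intensity was 9.41, 8.92 and 10 in AIRE1, 9.79, 8.89 and 9.98 in AIRE2, 9.84, 8.91 and 10.15 in AIRE-D312A, and 9.61, 8.59 and 9.82 in NC. In each line the replicate 2 array was the lowest. The differences over NC were 0.10 ± 0.42 (AIRE1), 0.21 ± 0.42 (AIRE2) and 0.30 ± 0.42 (AIRE-D312A; SE). Fitted with the replicate block, these differences had a standard error of 0.10, and the intervals were -0.11 to 0.32 (AIRE1), -0.00 to 0.43 (AIRE2) and 0.08 to 0.51 (AIRE-D312A). Leaving out a single array, each of the 3 differences took a negative value without NC replicate 2 (-0.27, -0.16 and -0.08). That fit takes a low replicate 2 array from NC alone, so the experiments are no longer balanced between lines. Within replicates 1, 2 and 3 the differences over NC were -0.20, 0.34 and 0.18 (AIRE1), 0.18, 0.31 and 0.16 (AIRE2), and 0.23, 0.32 and 0.33 (AIRE-D312A). In the authors' deposited table HMMR was below NC in all 3 lines, by log2 differences of -0.44 (AIRE1), -0.14 (AIRE2) and -0.09 (AIRE-D312A).

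The low HMMR level in replicate 2 was set against the mitotic spindle genes, which are needed for chromosome segregation as HMMR is. HMMR was lower on the replicate 2 array than on the mean of the other arrays of its line by -0.78 log2 in AIRE1, -0.99 in AIRE2, -1.09 in AIRE-D312A and -1.13 in NC, a mean of -1.0. Of 11947 genes, 66 had a lower mean than this. Of 22 mitotic genes, 10 were below 0 in all 4 lines, as were 3655 of the 11947 genes. The kinetochore protein CENPF stood at -1.11, the spindle-pole protein ASPM at -0.88 and the kinetochore motor CENPE at -0.82 in the mean over lines. The APC/C activator CDC20 stood at the other end, at 0.39, and the median of the mitotic genes was -0.05. The HMMR shift was thus not shared by the mitotic genes as a whole. CD44 was also lower in replicate 2 of every line, most in AIRE2 (-0.80), with -0.20 to -0.27 in the others. The shift was chosen for description after the HMMR values were seen, and what differed in replicate 2 was not tested.

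**Figure D3:**
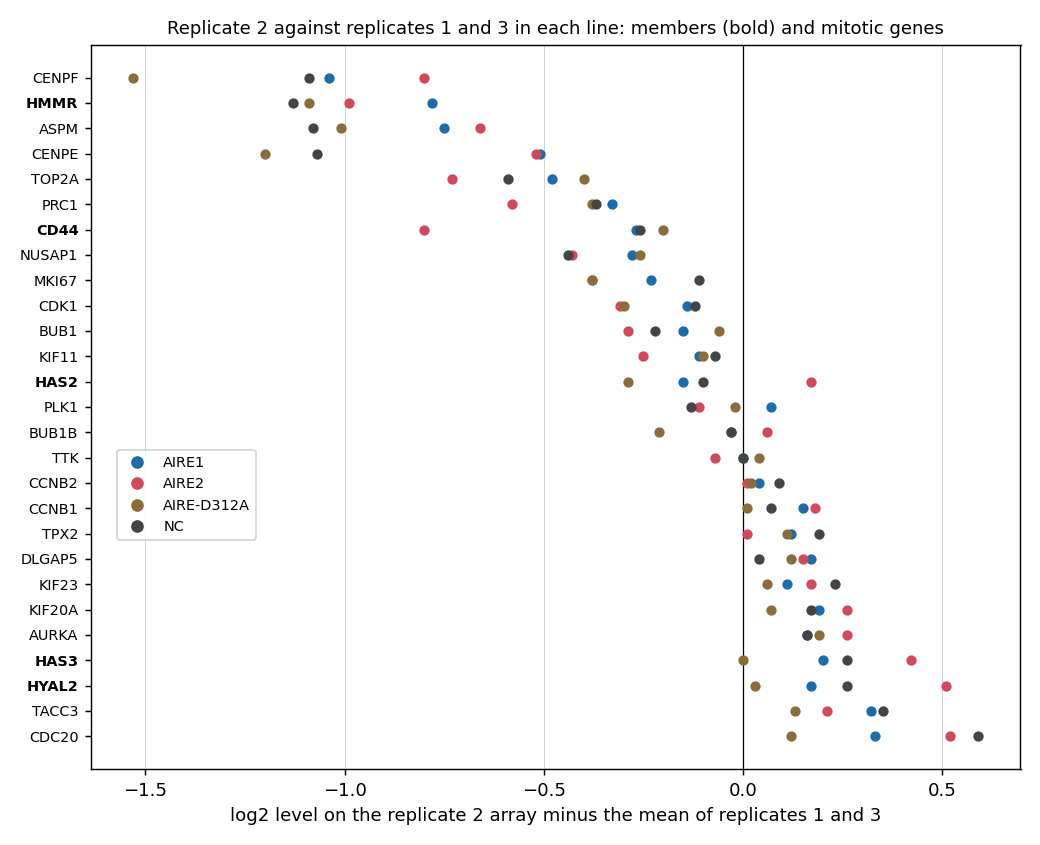
Log2 level on the replicate 2 array minus the mean of replicates 1 and 3, 1 point per line, for the 5 measured hyaluronan genes (bold) and 22 mitotic genes, ordered by the mean over lines. HMMR (mean -1.0) sits with CENPF, ASPM and CENPE at the low end, whereas CDC20 lies above 0 in all 4 lines.

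Counted by the call applied to all genes, a limma adjusted p under 0.05 in one fit of the 12 arrays, 1 of the 5 measured hyaluronan genes was higher (CD44) and 1 lower (HAS2) in AIRE2 over NC, where 5.93% of all genes tested were called higher and 3.52% lower. In AIRE1 over NC 0 were higher and 0 lower, beside 5.21% and 3.06% of all genes. In AIRE-D312A over NC 0 were higher and 1 (HAS2) lower, beside 2.65% and 1.32%. In AIRE2 over AIRE-D312A CD44 was higher and HAS2 lower, beside 1.34% and 0.879%. In AIRE1 over AIRE2 HAS2 was higher and CD44 lower, beside 1.28% and 1.02%. In AIRE1 over AIRE-D312A 0 were higher and 0 lower, beside 1.57% and 0.778%. Under the replicate block CD44 and HAS3 were called higher and HAS2 lower in each of the 3 lines over NC, beside 8.71 to 14.2% of all genes called higher and 7.73 to 12.5% lower; the other 3 contrasts gave the same member calls as without it. Since these genes were picked with such differences in view, the counts are a description, and nothing is read from their excess over the background. The 3 comparisons with NC share its arrays.

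The wider hyaluronan system was described by 5 lists of 53 further genes, of which 48 had a named probe and 24 were past the detection filter. The genes with no named probe were not analysed here. Over NC, AIRE1 had 2 genes of these lists higher and 3 lower, AIRE2 had 1 higher and 1 lower, and AIRE-D312A had 0 higher and 2 lower. The higher genes of both clones, with and without the block, included SPP1. It passed the detection filter only through these clones, where it was high, so counts that hold it are a description. The shares of all genes called higher and lower over NC were 5.21% with 3.06% (AIRE1), 5.93% with 3.52% (AIRE2) and 2.65% with 1.32% (AIRE-D312A). The block gave 3 higher with 6 lower in either clone, and 1 higher with 3 lower in AIRE-D312A, beside shares of all genes of 12.6% with 10.2% (AIRE1), 14.2% with 12.5% (AIRE2) and 8.71% with 7.73% (AIRE-D312A). The median log2 difference of the 24 genes was -0.02 (AIRE1), 0.03 (AIRE2) and 0.02 (AIRE-D312A), beside 0.01, -0.00 and 0.00 over all genes. Between AIRE lines, limma called 1 gene higher (again SPP1) and 0 lower in AIRE1 over AIRE-D312A, beside 1.57% and 0.778% of all genes. It called 0 genes in AIRE2 over AIRE-D312A, beside 1.34% higher and 0.879% lower, and 0 in AIRE1 over AIRE2, beside 1.28% and 1.02%. At an unadjusted p under 0.05 these contrasts held 2 higher and 2 lower, 2 and 1, and 4 and 4, and with the block 1 and 1, 2 and 2, and 4 and 5. The block's shares of all genes were 5.93% and 3.87%, 8.15% and 7.5%, and 7.51% and 5.84% in the same order. For the 0 genes called higher in AIRE-D312A over NC, the count at an unadjusted p under 0.05 was 1. The share of all genes at an unadjusted p under 0.05 was not computed, so nothing is read from unadjusted counts here or below.

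The 5 measured enzymes that make the UDP-sugar substrates (UGP2, UGDH, GFPT1, GNPNAT1 and UAP1) gave 0 limma calls in any contrast, and their differences over NC spanned -0.31 to 0.27 (AIRE1), -0.01 to 0.22 (AIRE2) and -0.14 to 0.09 (AIRE-D312A). Of the 3 measured other receptors (STAB1, STAB2 and LAYN), 0 were called, with differences over NC between -0.04 and 0.26. At an unadjusted p under 0.05, 1 enzyme was higher and 1 lower in AIRE1 over NC, 1 higher in AIRE2 over NC and 2 lower in AIRE1 over AIRE2, with 0 in the other contrasts and 0 of the receptors in any. The block called as many: GFPT1 higher in both clones and GNPNAT1 lower in AIRE1 over NC, and GNPNAT1 and UGDH lower in AIRE1 over AIRE2, named after their values were seen. Of all genes, the block called 12.6% higher and 10.2% lower in AIRE1 over NC, 14.2% higher in AIRE2 over NC and 5.84% lower in AIRE1 over AIRE2. Without the block the shares lay between 0.778% and 5.93% per contrast and direction. Nothing about the enzymes or receptors is read from these counts. LYVE1, TLR2 and TLR4 were not past the filter.

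Among 4 measured degradation genes, HEXA, the alpha subunit of lysosomal hexosaminidase, which trims sugar ends from hyaluronan fragments, was called lower in AIRE1 and AIRE-D312A over NC. Its log2 level was 5.74, 6.04 and 6.03 in AIRE1, 6.07, 6.0 and 6.20 in AIRE2, 5.83, 5.94 and 6.07 in AIRE-D312A, and 6.25, 6.52 and 6.77 in NC. All arrays of the AIRE lines lay below those of NC. HEXA fell by 0.58 ± 0.14 log2 in AIRE1 (limma adjusted p = 0.0225) and by 0.57 ± 0.14 in AIRE-D312A (limma adjusted p = 0.0424), and its difference in AIRE2 was -0.43 ± 0.14 (limma adjusted p = 0.0792; 0.00416 with the replicate block). The AIRE1 call was lost without AIRE1 replicate 1 (limma adjusted p = 0.112), NC replicate 2 (0.0509) or NC replicate 3 (0.0899). The AIRE-D312A call was kept in 3 of 13 fits that left arrays out, with limma adjusted p up to 0.166. Median centring in place of quantile normalisation gave -0.34 log2 in AIRE1 (limma adjusted p = 0.329) and -0.47 in AIRE-D312A (limma adjusted p = 0.278). The AIRE-D312A call was also lost without background correction, at -0.37, and without the detection filter, at -0.57 (limma adjusted p = 0.0518 in both). CEMIP2 and GUSB were called in AIRE2 over NC with the replicate block only, higher and lower, at log2 differences of 0.49 and -0.38, and were named after their values were seen.

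Among 18 hyaluronan-binding matrix genes and binding proteins 4 were measured. VCAN, the large matrix proteoglycan versican, stood at 7.91, 7.45 and 8.18 in AIRE1, 8.37, 7.62 and 8.47 in AIRE2, 9.09, 8.36 and 9.10 in AIRE-D312A, and 9.09, 8.57 and 9.12 in NC. Both clones lay below NC and, in each experiment, below AIRE-D312A. VCAN fell by 1.07 ± 0.28 log2 in AIRE1 over NC (limma adjusted p = 0.0348), and was at -0.77 ± 0.28 in AIRE2 (limma adjusted p = 0.118, and 4.78e-05 with the replicate block). Over AIRE-D312A it was at -1.0 ± 0.28 in AIRE1 (limma adjusted p = 0.104, and 2.71e-05 with the block). The AIRE1 call was lost without AIRE1 replicate 1 or 2 (limma adjusted p = 0.0968 and 0.135) and without NC replicate 1 or 3 (0.117 and 0.124), with median centring (0.0502, at -0.93 log2) and with no detection filter (0.0594, at -1.07). HAPLN3, a link protein that fastens hyaluronan to proteoglycans, rose by 0.53 ± 0.11 log2 in AIRE1 (limma adjusted p = 0.0108), at 6.91 ± 0.18 in AIRE1 and 6.38 ± 0.13 in NC (SD, n = 3 each). In AIRE-D312A over NC it was at 0.40 ± 0.11 (limma adjusted p = 0.0765, and 0.0151 with the block) and in AIRE2 over NC at 0.16 ± 0.11, and AIRE1 differed from AIRE-D312A by 0.14 ± 0.11 (limma adjusted p = 0.798). The AIRE1 call was lost without AIRE1 replicate 1 (limma adjusted p = 0.0603) or NC replicate 3 (0.0532). HABP4, a hyaluronan-binding protein found inside the cell, was at -0.39 (AIRE1), -0.28 (AIRE2) and -0.32 (AIRE-D312A) over NC, which was called with the block alone (limma adjusted p = 0.00781, 0.0324 and 0.0262). VCAN, HAPLN3 and HABP4 lay outside the naming rule and were named after their values were seen.

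The linkers, ligands and sheddases of CD44 were measured for 8 of 13 genes. SPP1, the secreted CD44 ligand osteopontin, stood at 5.67, 5.46 and 5.41 in AIRE1 and 5.33, 5.0 and 5.15 in AIRE2. It was not well above background on any array of AIRE-D312A (mean 4.69) or NC (mean 4.44). It passed the detection filter through the clones alone, where it was high, so its differences are given as bounds. The p-values beside them belong to the fitted differences and not to the bounds, and are given as a description. SPP1 rose at least 1.49-fold in AIRE1 over NC (limma adjusted p = 0.000302) and at least 1.17-fold in AIRE2 over NC (limma adjusted p = 0.00413). It was at least 1.53-fold higher in AIRE1 than in AIRE-D312A (limma adjusted p = 0.00546) and at least 1.2-fold higher in AIRE2 than in AIRE-D312A (limma adjusted p = 0.0926, and 0.0134 with the block). These bounds hold for the reported background correction. Without background correction the fitted log2 differences of AIRE1 over NC, AIRE2 over NC and AIRE1 over AIRE-D312A were 0.54, 0.36 and 0.39, and with offset 50 they were 0.51, 0.32 and 0.41, against 1.07, 0.72 and 0.82 in the reported fit.

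ADAM10, a membrane protease that sheds the CD44 ectodomain, was called lower in all 3 AIRE lines over NC. Its log2 level was 7.0, 6.98 and 7.05 in AIRE1, 6.66, 6.79 and 6.89 in AIRE2, 6.76, 6.70 and 6.88 in AIRE-D312A, and 7.31, 7.29 and 7.44 in NC. No array of an AIRE line reached the NC arrays. ADAM10 fell by 0.33 ± 0.09 log2 in AIRE1 (limma adjusted p = 0.0443), by 0.56 ± 0.09 in AIRE2 (limma adjusted p = 0.00231) and by 0.57 ± 0.09 in AIRE-D312A (limma adjusted p = 0.00434). The calls in AIRE2 and AIRE-D312A were kept in 13 of 13 fits that left arrays out and that in AIRE1 in 3 of 13, with limma adjusted p up to 0.154. Median centring gave -0.13, -0.45 and -0.48 log2, with limma adjusted p = 0.74, 0.122 and 0.17. ADAM17, the other sheddase, was at 0.22, 0.09 and 0.13 log2 and was not called. The linkers EZR, RDX and MSN were not called either, with differences over NC between -0.14 and 0.19.

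**Figure D4:**
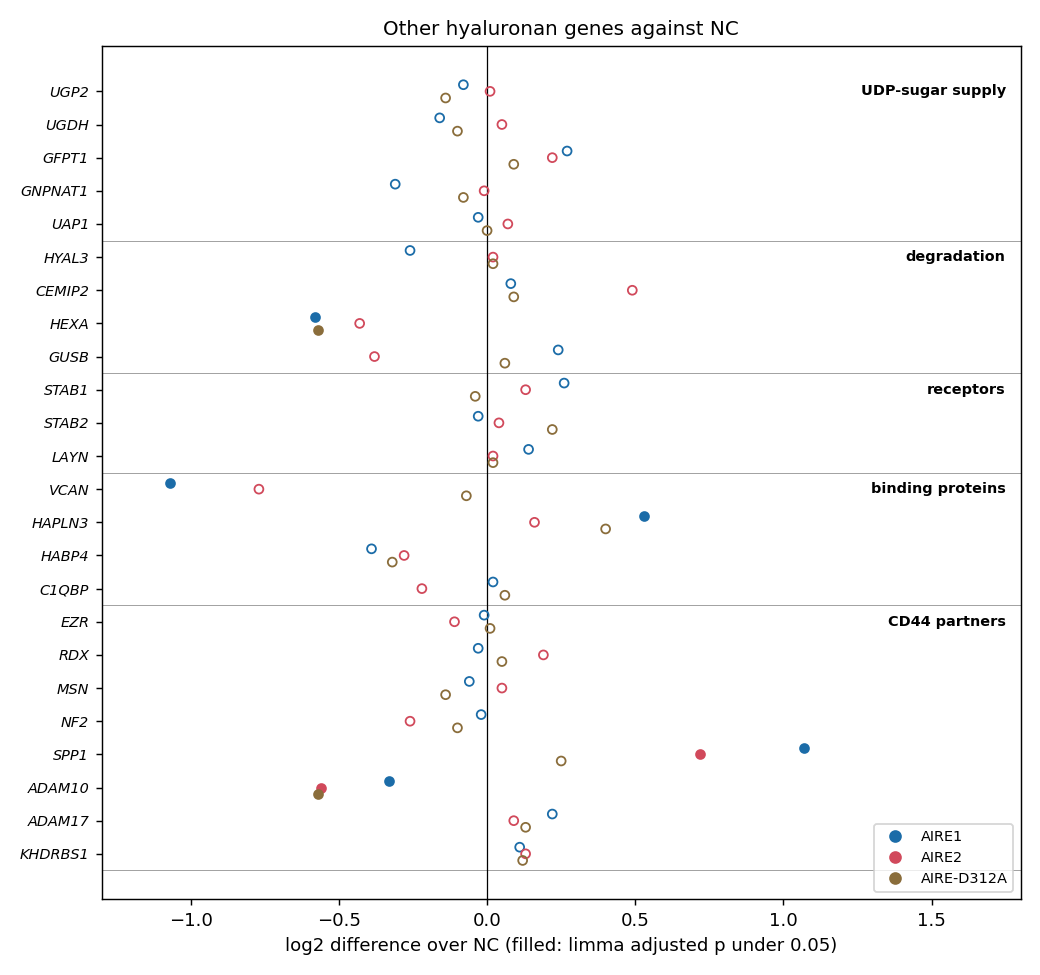
Log2 difference over NC of the 24 measured genes of the 5 hyaluronan lists in AIRE1, AIRE2 and AIRE-D312A, filled where the limma adjusted p was under 0.05 without the replicate block. ADAM10 is filled in all 3 lines, SPP1 in both clones, HEXA in AIRE1 and AIRE-D312A, and VCAN and HAPLN3 in AIRE1; SPP1 was not well above background in AIRE-D312A or NC.

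All 22 mitotic genes were measured. Over NC, limma called 0 in AIRE1 or AIRE-D312A (at an unadjusted p under 0.05, AIRE1 had 1 higher gene, while AIRE-D312A had 2 that were higher and 3 that were lower), and 1 was called higher in AIRE2, PLK1, the mitotic kinase, at 0.50 ± 0.09 log2 (limma adjusted p = 0.00521), named after its values were seen. Without the block, the shares of all genes called higher and lower were 5.21% and 3.06% (AIRE1), 5.93% and 3.52% (AIRE2), and 2.65% and 1.32% (AIRE-D312A). The block gave 9 higher and 3 lower in AIRE2, 2 and 0 in AIRE1, and 3 and 4 in AIRE-D312A, beside 14.2% and 12.5%, 12.6% and 10.2%, and 8.71% and 7.73% of all genes. The median over NC was 0.13 (AIRE1), 0.20 (AIRE2) and 0.06 (AIRE-D312A), beside 0.01, -0.00 and 0.00 over all genes. Over AIRE-D312A, AIRE1 had 2 genes higher and 0 lower, beside 1.57% and 0.778% of all genes. CCNB2, a mitotic cyclin, was higher by 0.44 ± 0.08 log2 (limma adjusted p = 0.0176), and TTK, a spindle checkpoint kinase, by 0.42 ± 0.10 (limma adjusted p = 0.0484). These calls were kept in 7 and 4 of 13 fits that left arrays out, with limma adjusted p up to 0.0961 and 0.195, and were lost with median centring (0.416 and 0.534), where the differences were 0.44 and 0.41.

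The chromosomal neighbours of CD44 and HAS2 were set beside them, chosen after the values of both were seen. The 10 nearest measured genes around CD44, 5 on each side in RefSeq order, had log2 differences of AIRE2 over NC between -0.59 and 0.07, with a median of -0.29, against 2.50 for CD44 and a median of -0.00 over all genes. All of these neighbours but PAMR1 (0.07) were below 0 in AIRE2 over NC, and all were below 0 in AIRE1 and in AIRE-D312A over NC. Why they were lower was not tested. The 10 genes around HAS2 had differences between -0.90 (COL14A1) and 0.91 (SNTB1), with a median of 0.04, against -2.20 for HAS2. No neighbour of either gene reached the size of its difference in AIRE2. In AIRE1 this did not hold: FJX1 stood at -1.10 against 0.53 for CD44, and COL14A1 at -0.94 against -0.43 for HAS2. In AIRE-D312A it did not hold for CD44, with PAMR1 at -0.88 against 0.52, but held for HAS2, with SNTB1 at 0.64 against -0.69. Limma called FJX1 lower (adjusted p = 0.0056) and SNTB1 higher (adjusted p = 0.0297) in AIRE2 over NC, beside 3.52% and 5.93% of all genes. In AIRE1 over NC, FJX1, SLC1A2 and LDLRAD3 were called lower (limma adjusted p = 8.52e-05, 0.0156 and 0.022), beside 3.06% of all genes. In AIRE-D312A over NC, FJX1 was called lower (limma adjusted p = 0.0224), beside 1.32%. No neighbour of HAS2 was called in AIRE1 or AIRE-D312A over NC. FJX1, PAMR1, SLC1A2, LDLRAD3, COL14A1 and SNTB1 were named after their values were seen. The genes adjoining CD44, PDHX and SLC1A2, stood at -0.06 and -0.20, and those adjoining HAS2, SNTB1 and ZHX2, at 0.91 and -0.14.

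**Figure D5:**
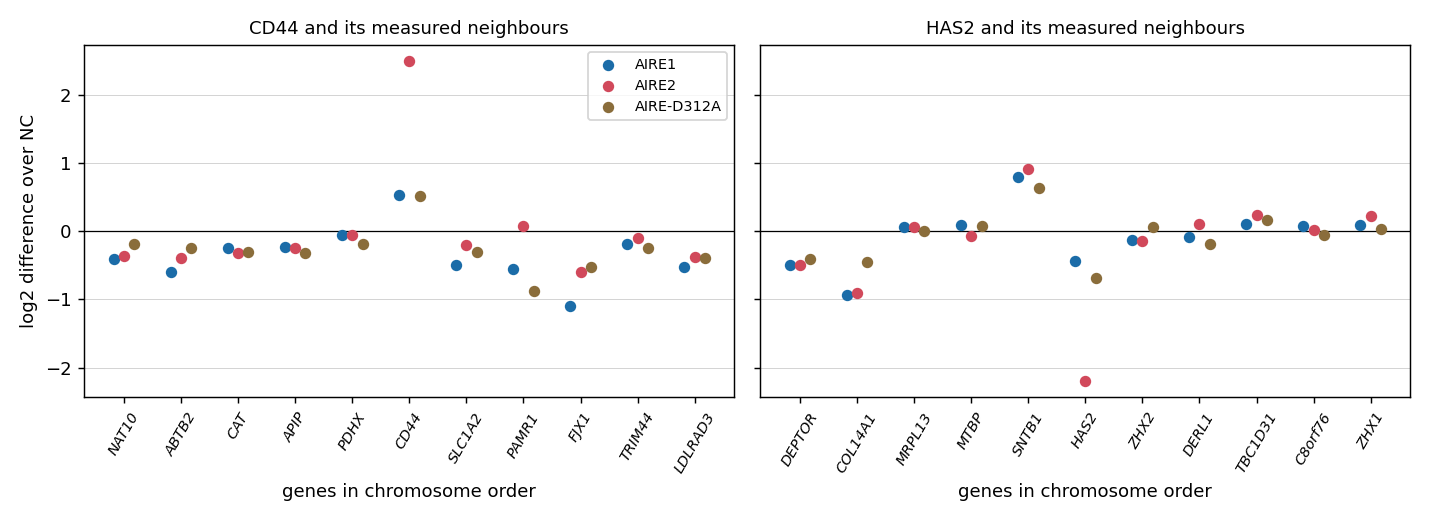
Log2 difference over NC of CD44 and HAS2 and of the 5 measured genes on each side of them in chromosome order, for AIRE1, AIRE2 and AIRE-D312A. The AIRE2 points of CD44 (2.50) and HAS2 (-2.20) stand apart from those of their neighbours, which lie between -0.90 and 0.91.

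The genes whose levels followed CD44 most closely over the 12 arrays were PSG7, a pregnancy-specific glycoprotein (Pearson r = 0.967), TERF2, a telomere-binding protein (0.966), IRX6, a homeobox factor (0.957), ZNF462, a zinc finger protein (0.954), and ESM1, the secreted proteoglycan endocan (0.948). TERF2 and ZNF462 exceeded NC by 0.33 and 0.49 log2 in AIRE2. PSG7, IRX6 and ESM1 were not well above background on any NC or AIRE-D312A array, and were at least 1.58-fold, 1.52-fold and 1.61-fold higher in AIRE2 than in NC. In AIRE1, PSG7 was detected on replicate 1 only, ESM1 on replicate 3 only and IRX6 on no array. All of PSG7, IRX6 and ESM1 passed the detection filter through AIRE2 alone. Their correlations with CD44 thus rest largely on AIRE2 against values near background. Those closest to HMMR were ADGRV1, an adhesion receptor (r = 0.965), RPL28, a ribosomal protein (0.963), PGAP1, an enzyme of GPI anchors (0.953), FAM184A (0.951) and COL4A6, a basement membrane collagen chain (0.948). Their replicate 2 arrays stood lower by -0.66, -0.57, -0.49, -0.71 and -0.99 in the mean over lines. These correlations are descriptions over 12 arrays that share lines and experiments, and the genes were the closest of 11947.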

How the data were processed

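RNA from 4 HEK293 lines was hybridised to 12 Illumina bead arrays, 3 per line. Per the labels' protocols, cRNA was amplified from 250 ng of total RNA; the submitters' processing notes name BeadStudio 3.1.3.0. Each deposited array file gives, per its header, linear intensity averaged over the beads of a probe, together with a detection p-value. These intensities were neither background-subtracted nor normalised. The authors also deposited a table with a single intensity for each probe in each line, its scale factors not given in the sources used here and column medians of 3.89 (AIRE1), 4.12 (AIRE2), 3.73 (AIRE-D312A) and 4.02 (NC). The deposited detection p-values of AIRE-D312A replicate 3 equalled those of AIRE1 replicate 3 and were not used; the limit of that array was predicted from its 40th percentile of intensity, which on the other 11 arrays gave the same call for 98.86 to 99.93% of probes.

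Intensities were corrected by normexp with negative-control parameters inferred from the detection p-values and an offset of 16, quantile-normalised and log2-transformed (limma 3.58.1, R 4.3.3). The platform annotation gave 1 symbol for 24782 probes, several for 0 and none for 23919; symbols of 24154 were updated through RefSeq gene IDs. The detection filter left 16263 probes, and the brightest probe stood for a gene. One limma fit with a mean per line gave 6 contrasts, with Benjamini-Hochberg adjustment over 11947 genes and calls at an adjusted p under 0.05. The procedure was tested on simulated data with noise drawn independently for each array. The simulation thus lacked the correlation between arrays of the same replicate number, and does not test the fit under it. A gene not detected in a line has a bound, the higher of its value and the detection limit on each array.

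Arrays of the same replicate number deviated together, so the numbers pair them: deviations from line means correlated at 0.332 to 0.61 in replicate 1, 0.744 to 0.848 in replicate 2 and 0.591 to 0.752 in replicate 3 (6 pairs each), against -0.743 to 0.529 for 36 pairs of different numbers. A fit with this replicate block, median centring, another offset, no background correction, no filter, the mean of all probes, the authors' table and left-out arrays were alternatives. List genes called alike in both clones over NC, or called in a contrast with AIRE-D312A, were named; others were named after their values were seen, as stated. Members and lists were chosen with earlier results of these data known. Coordinates are those of the RefSeq promoter table (GRCh38.p14).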

Additional observations from a re-analysis of the deposited data

Results flagged for a closer look

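Some listed genes differed between AIRE lines under the same comparison with NC, by the limma contrast between those lines. SPP1 was higher in AIRE1 than in AIRE-D312A by 0.82 ± 0.13 log2 (SE, limma adjusted p = 0.00546) in the fitted values. It was not well above background on any array of AIRE-D312A or NC, so the difference between AIRE1 and AIRE-D312A is given as at least 1.53-fold. The fitted difference was 0.39 without background correction. SPP1 passed the detection filter through the clones alone, so the p-value of its fitted difference is a description. CCNB2 was higher in AIRE1 than in AIRE2 by 0.38 ± 0.08 (limma adjusted p = 0.0368) and higher in AIRE1 than in AIRE-D312A by 0.44 ± 0.08 (limma adjusted p = 0.0176), with differences over NC of 0.17 (AIRE1), -0.22 (AIRE2) and -0.27 (AIRE-D312A). TTK was higher in AIRE1 than in AIRE-D312A by 0.42 ± 0.10 (limma adjusted p = 0.0484), with 0.18 and -0.24 over NC. With the replicate block the limma adjusted p-values of these 4 differences were 0.000533, 0.00344, 0.00157 and 0.0027. The CCNB2 difference between the clones was kept in 2 of 13 fits that left arrays out, with limma adjusted p up to 0.141, and was lost with median centring (0.443, at 0.42 log2). In AIRE1 all 3 arrays of CCNB2 and TTK lay above those of AIRE-D312A.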

How the results depend on the processing

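Of 120 member values per gene across settings, 116 (CD44), 120 (HMMR), 108 (HAS2), 115 (HAS3) and 117 (HYAL2) moved by less than the replicate SD, and 0 called member values changed sign. That SD was each gene's own, 0.61 for HMMR and 0.16 for HAS2, so these counts do not rank the genes by stability. The HMMR differences over NC, which were not called, changed sign without NC replicate 2 and in the authors' deposited table. The values that moved by more than the SD were these. CD44 in AIRE2 over NC was 2.05 without background correction and 2.11 with offset 50, and in the authors' deposited table CD44 was 2.43 in AIRE2 over AIRE-D312A and -2.37 in AIRE1 over AIRE2. HAS2 without background correction was -1.58 in AIRE2 over NC, -1.02 in AIRE2 over AIRE-D312A and 1.23 in AIRE1 over AIRE2, with offset 50 -1.65, -1.07 and 1.29, and in the authors' deposited table -2.98, -1.89 and 2.12. HAS2 over NC was -0.26 in AIRE1 with median centring, and -0.86 in AIRE1 and -1.09 in AIRE-D312A in the authors' deposited table. HAS3 over NC was 0.30, 0.25 and 0.21 in AIRE1, AIRE2 and AIRE-D312A without background correction, and 0.32 and 0.27 in AIRE1 and AIRE2 with offset 50. HYAL2 over NC was -0.52, -0.45 and -0.36 in AIRE1, AIRE2 and AIRE-D312A in the authors' deposited table. For dim probes, the added offset compresses differences by construction; for the rest the cause was not tested.

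Counts moved with the replicate block, with median centring and with arrays left out. With the replicate block, genes called higher and lower were 1507 and 1215 in AIRE1 over NC, 1692 and 1491 in AIRE2 over NC, 1041 and 923 in AIRE-D312A over NC, 708 and 462 in AIRE1 over AIRE-D312A, 974 and 896 in AIRE2 over AIRE-D312A, and 897 and 698 in AIRE1 over AIRE2. With median centring they were 652 and 107, 516 and 72, 199 and 30, 137 and 22, 83 and 13, and 29 and 26 in the same order, against 622 and 366, 709 and 421, 316 and 158, 187 and 93, 160 and 105, and 153 and 122 in the reported fit, so that higher calls made up a larger share over NC and over AIRE-D312A. Leaving out 1 array gave 396 to 777 higher and 197 to 461 lower in AIRE1 over NC, 250 to 564 lower in AIRE2 over NC, 166 to 399 and 54 to 236 in AIRE-D312A over NC, 70 to 257 and 38 to 116 in AIRE1 over AIRE-D312A, 67 to 466 and 19 to 260 in AIRE2 over AIRE-D312A, and 44 to 222 and 51 to 251 in AIRE1 over AIRE2. Leaving out replicate 2 of all lines, an alternative added after the data were seen, gave 609 lower in AIRE1 over NC, 1113 and 637 in AIRE2 over NC, 489 and 433 in AIRE-D312A over NC, 745 and 417 in AIRE2 over AIRE-D312A, and 286 and 357 in AIRE1 over AIRE2.

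For the 5 hyaluronan lists, the block gave 3 higher and 6 lower in AIRE1 over NC, 3 and 6 in AIRE2 over NC, 1 and 3 in AIRE-D312A over NC, 1 and 1 in AIRE1 over AIRE-D312A, 2 and 2 in AIRE2 over AIRE-D312A, and 4 and 5 in AIRE1 over AIRE2. The higher genes of both clones over NC included SPP1, which passed the filter through the clones alone. Median centring gave 0 lower in each line over NC; in AIRE-D312A over NC 1 was lower without background correction or without the filter, and in AIRE2 over NC 2 were higher without the filter. Leaving out 1 array gave 1 to 3 higher and 0 to 3 lower in AIRE1 over NC, 1 to 2 and 1 to 2 in AIRE2 over NC, 1 to 2 lower in AIRE-D312A over NC, 0 to 1 lower in AIRE1 over AIRE-D312A and 0 to 1 higher in AIRE2 over AIRE-D312A. Without replicate 2 of all lines there were 2 higher and 2 lower in AIRE2 over NC, 1 and 1 in AIRE-D312A over NC, 1 lower in AIRE1 over AIRE-D312A, 1 higher and 2 lower in AIRE2 over AIRE-D312A, and 1 higher in AIRE1 over AIRE2. For the mitotic list, the block gave 2 higher in AIRE1 over NC, 9 higher and 3 lower in AIRE2 over NC, 3 and 4 in AIRE-D312A over NC, 2 higher in AIRE2 over AIRE-D312A, and 4 higher and 1 lower in AIRE1 over AIRE2. Median centring gave 0 higher in AIRE1 over AIRE-D312A and AIRE1 over AIRE2, and 1 was lower in AIRE2 over NC with offset 50, without background correction or without the filter. Leaving out 1 array gave 0 to 2 higher in AIRE1 over AIRE-D312A and 0 to 1 higher in AIRE1 over AIRE2. Without replicate 2 of all lines, 1 was higher in AIRE1 over AIRE-D312A, 0 in AIRE1 over AIRE2, and 1 was lower in AIRE-D312A over NC. The authors' deposited table has 1 value per line, so it gave differences but no calls. Slide was not fitted as a block.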
